A study of Mus musculus with 10 samples.

Results

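*Firre*, *Neat1*, *Malat1*, *Meg3*, *Rian*, *Mirg* and *Kcnq1ot1* are long noncoding RNAs (lncRNAs) that stay largely in the nucleus. These 7 genes, of 55536 in the count files, were chosen by name because *Firre*, *Neat1* and *Meg3* had been seen to fall far in both knockouts of this series, so their differences from wild type are given here as a description, without a test. Bladders of C57BL/6 mice were compared in 3 groups, 4 *WT* libraries of wild type mice, 3 *OMD*-/- libraries and 3 *PRELP*-/- libraries (one genotype label spells the last PRLEP-/-, under titles that read PRELP_knockout). OMD (osteomodulin) and PRELP are small leucine-rich proteoglycans of the extracellular matrix. Both knockouts are constitutive, so every cell type carries them, with a β-galactosidase gene inserted at the disrupted locus. The labels name no other allele, treatment or age for any group. These group sizes are those of the labels, and for *WT* and *OMD*-/- they differ from the numbers in the study's text. The labels describe homogenised bladder tissue, whereas the study's text speaks of isolated epithelia. Nothing in the labels says which libraries came from separate mice, so the spread between libraries may be technical in part.

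As background, most of these RNAs are known for what they do inside the nucleus. *Neat1* is the scaffold of paraspeckles, and *Malat1* collects in nuclear speckles, the compartments rich in splicing factors. *Firre* is made from the X chromosome and holds distant chromosome regions near one another through the matrix protein *Hnrnpu*. *Meg3*, *Rian* and *Mirg* are read one after another from the maternal copy of the imprinted Dlk1-Dio3 domain and carry snoRNAs and miRNAs in their introns and exons. *Kcnq1ot1* is transcribed from the paternal copy of an imprinted domain, against the direction of *Kcnq1*, and silences neighbouring genes there.

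In the GRCm38 annotation (GENCODE vM21), *Neat1* (ENSMUSG00000092274, chr19:5824708-5845478, minus strand) and *Malat1* (ENSMUSG00000092341, chr19:5795690-5802672, minus strand) are neighbours, each annotated as a single unspliced exon block. *Meg3* (ENSMUSG00000021268, chr12:109541001-109571726), *Rian* (ENSMUSG00000097451, chr12:109603940-109661716) and *Mirg* (ENSMUSG00000097391, chr12:109729764-109749460) follow each other on the plus strand. *Firre* (ENSMUSG00000085396) spans chrX:50555744-50635321 and *Kcnq1ot1* (ENSMUSG00000101609) spans chr7:143203458-143296549, both on the minus strand.

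The 3′ ends of *Malat1* and of the long form of *Neat1* are shown because they bear on how these libraries were made. As background, both ends are cut by RNase P instead of being polyadenylated, and a U-rich and an A-rich tract fold into a triple helix that protects them. The libraries were made from RNA bound to oligo-dT beads. The windows below end at the last base of the A-rich tract of the annotated *Malat1* transcript (chr19:5795982-5796101) and of the long *Neat1* transcript (chr19:5824708-5824827). Capitals mark runs of at least 4 T on each side of G or C, and the A-rich tract itself.
Malat1: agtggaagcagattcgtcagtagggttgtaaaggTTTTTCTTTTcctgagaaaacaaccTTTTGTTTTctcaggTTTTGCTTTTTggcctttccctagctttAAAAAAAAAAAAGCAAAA
Neat1: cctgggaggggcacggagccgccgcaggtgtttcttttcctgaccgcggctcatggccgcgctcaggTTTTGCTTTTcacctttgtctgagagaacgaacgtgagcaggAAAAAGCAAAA
The *Malat1* tract holds 12 A in a row, from position 6674 of a transcript of 6983 bases, and 292 annotated bases follow the tract. The *Neat1* tract is the annotated end of its transcript of 20771 bases, in which the longest run of A is 7. In the longest transcripts of the other genes, the longest run of A is 41 in *Kcnq1ot1*, 16 in *Meg3* and 15 in *Rian*. It is 7 in *Firre* and 5 in *Mirg*. The short form of *Neat1* is polyadenylated, and the gene-level counts do not separate the 2 forms.

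*Firre* carries a repeat that its localisation is known to depend on. The longest stretch found in at least 8 exact copies in transcript Firre-206 (5555 bases) was 61 bases long, with 8 copies from position 394 to 3806, and no transcript of another gene held it.
Firre repeat: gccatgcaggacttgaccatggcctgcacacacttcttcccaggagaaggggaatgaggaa

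RefSeq promoter windows (300 bases around the start, nearly all before it, build GRCm38.p6) were found for 6 of the 7 genes, all but *Neat1*. They are shown for 3 genes on different chromosomes whose RNAs were lower together. Capitals mark the TATA box TATAAA, the cAMP response element TGACGTCA, the CCAAT box, the E-box CACGTG and the GC box GGGCGG, searched on both strands.
Firre, chrX:50635272-50635571, minus strand: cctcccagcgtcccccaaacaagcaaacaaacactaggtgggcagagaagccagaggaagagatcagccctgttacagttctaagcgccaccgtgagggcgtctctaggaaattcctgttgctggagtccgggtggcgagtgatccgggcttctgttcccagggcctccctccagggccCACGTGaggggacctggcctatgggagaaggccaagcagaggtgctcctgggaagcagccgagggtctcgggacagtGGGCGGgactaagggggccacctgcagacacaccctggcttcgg
Meg3, chr12:109540746-109541045, plus strand: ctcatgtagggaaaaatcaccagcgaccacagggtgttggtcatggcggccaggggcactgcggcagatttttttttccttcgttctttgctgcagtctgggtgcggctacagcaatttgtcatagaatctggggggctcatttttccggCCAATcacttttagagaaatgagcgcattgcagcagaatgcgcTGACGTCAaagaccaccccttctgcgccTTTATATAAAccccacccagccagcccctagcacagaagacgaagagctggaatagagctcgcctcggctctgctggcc
Kcnq1ot1, chr7:143296498-143296797, minus strand: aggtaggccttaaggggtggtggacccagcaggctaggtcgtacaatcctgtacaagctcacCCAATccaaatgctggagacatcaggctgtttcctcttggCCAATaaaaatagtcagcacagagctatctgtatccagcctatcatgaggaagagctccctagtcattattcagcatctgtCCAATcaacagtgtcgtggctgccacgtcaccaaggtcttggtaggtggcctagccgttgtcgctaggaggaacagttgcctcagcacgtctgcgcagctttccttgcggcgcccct
None of the 5 motifs was in every window. TATAAA and TGACGTCA were found in *Meg3* alone of the 6, and in 13.6% and 1.8% of all 32851 promoter windows. In *Meg3* the TATAAA matches overlap each other. CCAAT was found in *Meg3*, *Mirg* and *Kcnq1ot1* (37.4% of all windows), and 3 times in *Kcnq1ot1*. CACGTG (7.2%) and GGGCGG (35.7%) were found in *Firre* alone. The windows of *Rian* and *Malat1* held none of them. A match is a description of letters and not evidence of a bound factor.

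The RNAs of the *Meg3* to *Mirg* stretch are hosts of miRNAs, and 35 mature miRNAs lie inside the 3 host genes in RefSeq, from 2 miRNA genes in *Meg3*, 3 in *Rian* and 14 in *Mirg*. A few are shown for what the hosts encode, with the seed (bases 2 to 8) in capitals. Only miR-453 and miR-496a-5p share a seed.
mmu-miR-770-5p (Meg3): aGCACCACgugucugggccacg
mmu-miR-370-3p (Rian): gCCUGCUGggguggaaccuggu
mmu-miR-453 (Mirg): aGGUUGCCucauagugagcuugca
mmu-miR-496a-5p (Mirg): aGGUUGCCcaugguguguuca
These libraries do not measure mature miRNAs. The 66 miRNA and 23 snoRNA genes annotated from the start of *Meg3* to the end of *Mirg* had 67 counts in all 10 libraries together, against 25774 counts for *Meg3*, *Rian* and *Mirg*.

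Total counts ranged from 20391437 to 46269079, the highest in *WT* replicate 1 and all others at or below 25905707. *Prelp* had 46 to 74 counts in the *PRELP*-/- libraries and at least 4848 in every other library, whereas *Omd* had 0 counts in the *OMD*-/- libraries but also only 0 to 12 in *WT*, so its counts could not check the labels. Umbrella cell markers (6 uroplakin and keratin genes) summed to 7759 to 9401 CPM (counts scaled to a common library total with TMM factors) in *WT* and to 9973 or more in every knockout library. *PRELP*-/- replicate 1 stood apart, with a mean correlation of 0.941 with its group mates, against 0.967 or more for every other library. The Y-linked genes *Ddx3y*, *Eif2s3y*, *Kdm5d* and *Uty* summed to 117 to 188 CPM in *WT* replicates 1 and 2 and *PRELP*-/- replicate 1, to 18.4 to 19.0 CPM in *OMD*-/- replicate 1 and *PRELP*-/- replicates 2 and 3, and to under 1 CPM in the other libraries. The labels give no sex.

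All 7 lncRNAs were lower in every knockout library than in every *WT* library, in both knockouts. Together they took 0.161% to 0.195% of all counts in the *WT* libraries, 0.0300% to 0.0382% in *OMD*-/- and 0.0209% to 0.0270% in *PRELP*-/-. Among all genes tested, 15.1% passed an adjusted p of 0.05 as lower and 14.3% as higher in *OMD*-/- in edgeR's quasi-likelihood test, and 5.89% and 1.4% in *PRELP*-/-. Of the genes called, 48.5% were higher in *OMD*-/- and 19.2% in *PRELP*-/- with TMM scaling, but 22.7% and 3.10% on total counts alone, where the median log2 fold change of all genes was -0.16 and -0.20 instead of 0.00 and 0.02. The 7 lncRNAs were lower with either scaling. The knockout libraries lay wholly below *WT* for 18.5% of genes in *OMD*-/- and 15.8% in *PRELP*-/-. The choice of the 7 lncRNAs used the same contrasts, so nothing is read from their count. In tissue RNA, fewer cells of a type and less RNA per cell cannot be told apart.

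**Figure D1:**
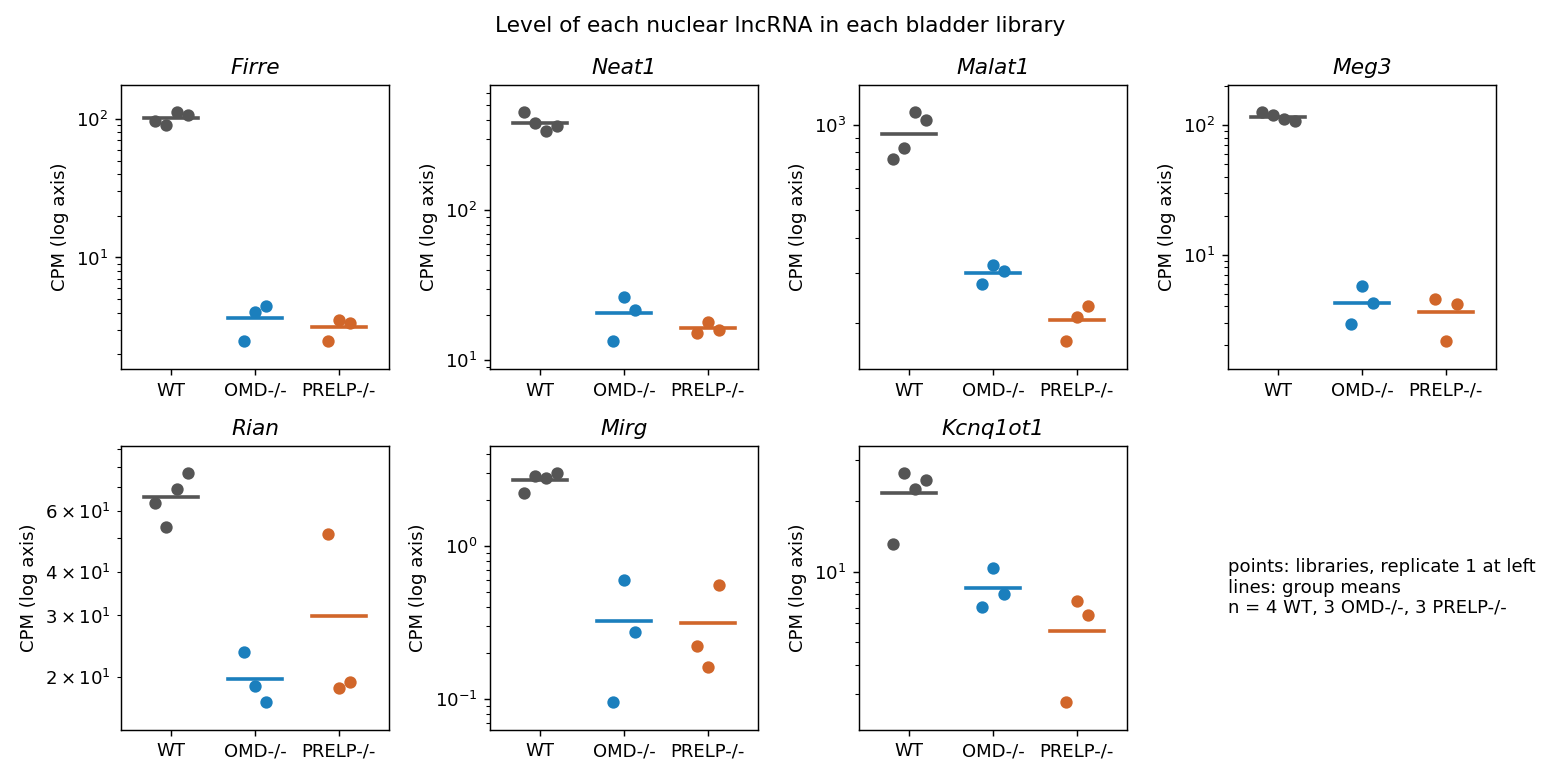
Level of each lncRNA in each library, in CPM on a log axis, for WT (4), OMD-/- (3) and PRELP-/- (3), with lines at the group means. Firre, Neat1 and Meg3 show the widest gap between WT and knockout libraries, and Rian in PRELP-/- replicate 1 (51.6 CPM) sits close to the lowest WT library (53.9 CPM).

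*Firre*, the X-linked organiser of chromosome contacts, had 4872, 2062, 2535 and 2436 counts in *WT* replicates 1 to 4, or 96.8, 89.9, 111 and 107 CPM. In *OMD*-/- replicates 1 to 3 it had 52, 95 and 98 counts (2.48, 4.05 and 4.49 CPM), and in *PRELP*-/- it had 45, 88 and 73 counts (2.48, 3.56 and 3.40 CPM). No knockout library came near the *WT* range, which was narrow (coefficient of variation 9.48%). The fitted log2 fold change against *WT* was -4.80 ± 0.19 (SE) in *OMD*-/-, or 27.8-fold lower, and -5.02 ± 0.20 in *PRELP*-/-, or 32.6-fold lower.

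*Neat1*, the paraspeckle scaffold, had 22570, 8707, 7718 and 8305 counts in the *WT* libraries, or 449, 380, 338 and 364 CPM. It had 280, 619 and 475 counts (13.4, 26.4 and 21.8 CPM) in *OMD*-/- and 276, 442 and 344 counts (15.2, 17.9 and 16.0 CPM) in *PRELP*-/-. The *OMD*-/- libraries were the more scattered, with a coefficient of variation of 32.2% against 8.35% in *PRELP*-/-. The log2 fold change was -4.24 ± 0.23 (SE) in *OMD*-/- and -4.57 ± 0.18 in *PRELP*-/-.

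*Malat1*, the neighbour of *Neat1* on chromosome 19, was the most abundant of the 7 and the one with the smallest spread between *OMD*-/- libraries (7.76%). Its *WT* libraries had 37931, 18962, 25206 and 23618 counts (754, 827, 1105 and 1036 CPM). In *OMD*-/- it had 275, 320 and 306 CPM and in *PRELP*-/- 172, 211 and 230 CPM, so that it was at 172 CPM or more in every library. The log2 fold change was -1.65 ± 0.15 in *OMD*-/- and -2.21 ± 0.21 in *PRELP*-/-. Within one library, the count of *Neat1* was 0.306 to 0.595 of that of *Malat1* in *WT*, 0.0486 to 0.0824 in *OMD*-/- and 0.0696 to 0.0884 in *PRELP*-/-. *Neat1* was thus lower relative to *Malat1* in each knockout library, a ratio that library scaling does not touch. The fall of *Neat1* led to the choice of these genes and that of *Malat1* did not, so the choice favoured this direction.

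*Meg3*, the first gene of the imprinted chromosome 12 stretch, had 6305, 2764, 2543 and 2435 counts in *WT* (125, 121, 111 and 107 CPM). It had 61, 134 and 92 counts (2.91, 5.72 and 4.22 CPM) in *OMD*-/- and 83, 53 and 90 counts (4.58, 2.15 and 4.19 CPM) in *PRELP*-/-. Both knockout groups lay far under *WT* and overlapped each other. The log2 fold change was -4.77 ± 0.19 in *OMD*-/- and -5.03 ± 0.28 in *PRELP*-/-.

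*Rian*, which follows *Meg3* and hosts a snoRNA cluster, had 63.3, 53.9, 69.3 and 76.9 CPM in the *WT* libraries. It had 23.6, 18.8 and 16.9 CPM in *OMD*-/-, and 51.6, 18.6 and 19.4 CPM in *PRELP*-/-. *PRELP*-/- replicate 1 was thus only just below *WT* while both other *PRELP*-/- libraries lay in the *OMD*-/- range. The log2 fold change was -1.76 ± 0.15 in *OMD*-/- and -1.17 ± 0.36 in *PRELP*-/-, and -1.81 ± 0.16 without *PRELP*-/- replicate 1. Genes annotated as snRNA, snoRNA or scaRNA summed to 32.5 CPM in the same library, 16.2 and 16.4 CPM in both other *PRELP*-/- libraries, 15.5 to 19.1 CPM in *OMD*-/- and 31.7 to 40.4 CPM in *WT*. Their part in the *Rian* value was not tested.

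*Mirg*, the miRNA host at the far end, was measured at low depth. It had 111, 66, 63 and 68 counts in *WT* (2.21 to 2.98 CPM), 2, 14 and 6 counts in *OMD*-/- (0.0955 to 0.598 CPM) and 4, 4 and 12 counts in *PRELP*-/- (0.162 to 0.559 CPM). The log2 fold change was -3.04 ± 0.44 in *OMD*-/- and -3.12 ± 0.41 in *PRELP*-/-. At these counts its standard errors were the widest of the 7. *Meg3* exceeded *Rian* in every *WT* library, with count ratios of 1.39 to 2.24, and fell below it in every knockout library, with ratios of 0.123 to 0.305 in *OMD*-/- and 0.0889 to 0.216 in *PRELP*-/-. So the 3 RNAs, though neighbours on one strand, were not lower to the same degree. The fall of *Meg3* led to the choice of these genes and that of *Rian* did not, so the choice favoured this direction too.

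*Kcnq1ot1*, the imprinted RNA that runs against *Kcnq1*, had 657, 604, 516 and 560 counts in *WT*, or 13.1, 26.3, 22.6 and 24.6 CPM. *WT* replicate 1, the deepest library, held the lowest share. It had 7.07, 10.4 and 8.02 CPM in *OMD*-/- and 2.76, 7.49 and 6.52 CPM in *PRELP*-/-, where replicate 1 was the lowest of all. The log2 fold change was -1.36 ± 0.24 in *OMD*-/- and -1.97 ± 0.37 in *PRELP*-/-, the latter -1.63 ± 0.28 without *PRELP*-/- replicate 1. The exons of *Kcnq1* cover 121 bases (0.13%) of *Kcnq1ot1* on the other strand. Whether the counting used strand is not given in the sources used here, so reads from unspliced *Kcnq1* RNA cannot be told apart from it. Antisense genes likewise cover 6.79% of the *Meg3* exons (*Gm26906*) and 6.49% of *Malat1* (*Gm37376*).

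Per kilobase of annotated exon (CPM per kb), the order of levels in *WT* was *Malat1* at 133 ± 23.9 (SD, n = 4), *Neat1* at 18.4 ± 2.27, *Firre* at 12.3 ± 1.16, *Meg3* at 6.41 ± 0.466, *Rian* at 3.61 ± 0.533, *Mirg* at 0.371 ± 0.0474 and *Kcnq1ot1* at 0.232 ± 0.0636. No 2 neighbours in that order had overlapping *WT* libraries. In *OMD*-/- the order became *Malat1* at 43.0 ± 3.34 (SD, n = 3), *Rian* at 1.08 ± 0.189, *Neat1* at 0.988 ± 0.319, *Firre* at 0.446 ± 0.128, *Meg3* at 0.237 ± 0.0777, *Kcnq1ot1* at 0.0912 ± 0.0183 and *Mirg* at 0.0442 ± 0.0349. There the libraries of *Rian* and *Neat1*, of *Firre* and *Meg3*, and of *Kcnq1ot1* and *Mirg* overlapped. *PRELP*-/- gave the same order of means, from *Malat1* at 29.3 over *Rian* at 1.64 ± 1.03 (SD, n = 3) and *Neat1* at 0.789 ± 0.0659 to *Mirg* at 0.0430 ± 0.0293, with overlap between *Kcnq1ot1* and *Mirg* alone among neighbours.

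**Figure D2:**
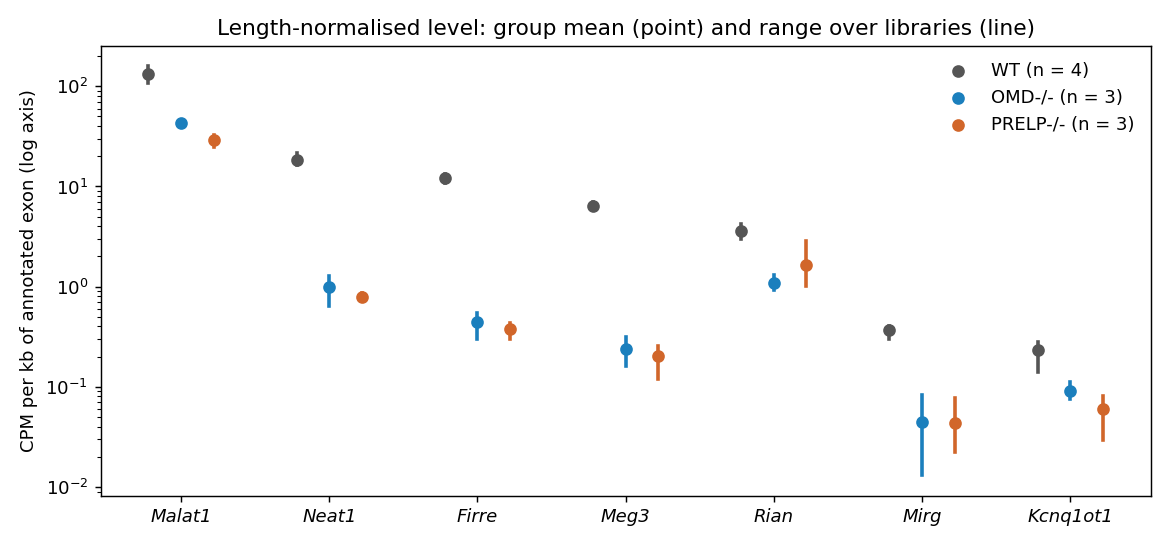
Length-normalised level of each lncRNA in CPM per kb of annotated exon on a log axis, with points at the group means and lines from the lowest to the highest library. Malat1 is the highest in each group, and Rian, below Meg3 in WT at 3.61, comes next after Malat1 in both knockouts at 1.08 and 1.64.

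The comparison between the knockouts is the one that did not enter the choice of these genes. Whether the loss of OMD and the loss of PRELP left different levels was tested directly for 6 lncRNAs (*Mirg* had too few counts). In edgeR's quasi-likelihood test 0 of 6 passed and 1 of 6 had an unadjusted p under 0.05, beside a background of 0.00633% of all genes, which is 1 gene of 15805, *Prelp* itself, with 713 genes under an unadjusted 0.05. DESeq2 called 0 of the 7, and 88 genes of the whole table. Limma-voom with sample weights called 1 of 6, *Malat1*, and 1012 genes of the whole table.

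*Malat1* alone of the 6 had a 95% interval without 0, before adjustment over all genes. Its log2 difference (*PRELP*-/- minus *OMD*-/-) was -0.55 ± 0.16 (SE), with an interval of -0.93 to -0.17. The adjusted p was 0.690 in edgeR, against 0.00190 in limma-voom. The other differences were -0.22 for *Firre* (95% interval -0.90 to 0.47), -0.32 for *Neat1* (-0.93 to 0.29), -0.24 for *Meg3* (-1.12 to 0.64), 0.60 for *Rian* (-0.39 to 1.59) and -0.59 for *Kcnq1ot1* (-1.46 to 0.28). These intervals include 0, and they also include differences of more than 1.5-fold, so they do not show equal levels. Without *PRELP*-/- replicate 1 the *Rian* difference was -0.06 ± 0.14 (SE). Deviations of same-numbered libraries correlated at 0.235 to 0.384 between the knockouts. Libraries of different numbers were not compared, so pairing is not shown. With the replicate number as a block 43 genes of the whole table passed instead of 1, with none of these 6 among them.

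**Figure D3:**
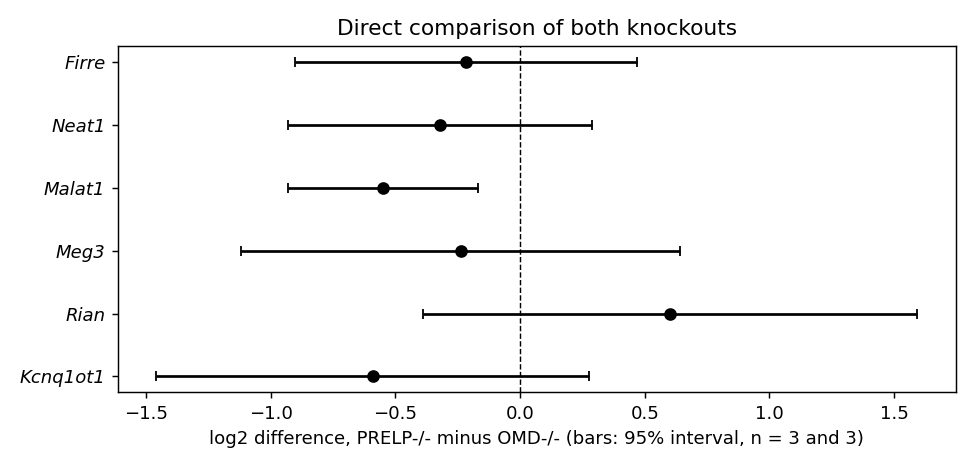
Log2 difference between PRELP-/- and OMD-/- (3 libraries each) for the 6 lncRNAs that could be tested, with 95% intervals. The interval of Malat1 (-0.93 to -0.17) lies wholly below 0, before adjustment over all genes, and the other intervals cross 0.

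Other lncRNAs, mostly known from the nucleus or from imprinted and developmental loci, formed a list of 22, of which 16 could be tested in *OMD*-/- and 15 in *PRELP*-/-. In *OMD*-/- 8 were lower and 1 was higher, with a median log2 fold change of -0.68 beside 0.00 over all genes tested. In *PRELP*-/- 5 were lower and 1 was higher, with a median of -0.60 beside 0.02. Of all genes tested, 15.1% were called lower and 14.3% higher in *OMD*-/-, and 5.89% and 1.4% in *PRELP*-/-. The same 5 RNAs were lower in each, and both comparisons share the *WT* libraries. The calls in *OMD*-/- numbered 5 to 9 when single libraries were left out, and those in *PRELP*-/- 3 to 6. This list and the gene lists below were drawn up with earlier results of these data known. Their counts are therefore a description.

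*Mir17hg*, host of an oncogenic miRNA cluster, had 58 to 141 counts in the *WT* libraries, 3 to 7 in *OMD*-/- and 1 to 5 in *PRELP*-/-. Its log2 fold change was -3.97 ± 0.48 in *OMD*-/- (adjusted p = 0.000261) and -4.47 ± 0.55 in *PRELP*-/- (adjusted p = 0.00292). *4933407K13Rik*, an unnamed RNA of the list, had 44 to 194 counts in *WT* and 0 to 11 in the knockout libraries, with log2 fold changes of -3.37 ± 0.40 and -3.72 ± 0.72. *Ftx*, an activator of *Xist* from the X-inactivation centre, had 224 to 323 counts in *WT*, 47 to 84 in *OMD*-/- and 30 to 59 in *PRELP*-/-, or at most 3.59 CPM in any knockout library and at least 6.42 CPM in *WT* (log2 fold changes -1.82 ± 0.27 and -2.31 ± 0.29). *Fendrr*, a regulator of mesoderm development, had 20.2 CPM or more in *WT*, 4.68 to 7.30 CPM in *OMD*-/- and 2.87 to 5.35 CPM in *PRELP*-/-, with log2 fold changes of -1.73 ± 0.16 and -2.28 ± 0.22. *Airn*, the imprinted antisense RNA of the *Igf2r* locus, was lower by less, with log2 fold changes of -1.25 ± 0.20 and -1.17 ± 0.23.

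Not every RNA of the list was low. *Peg13*, an imprinted RNA, rose with log2 fold changes of 0.37 ± 0.08 in *OMD*-/- (adjusted p = 0.00437) and 0.50 ± 0.12 in *PRELP*-/- (adjusted p = 0.0438), its 6 knockout libraries at 133 to 153 CPM against 95.3 to 112 CPM in *WT*. In *PRELP*-/- it did not pass without any 1 of the 4 *WT* libraries or without *PRELP*-/- replicate 2 or 3, nor on total counts, without a filter, with the replicate block or with a Y-gene covariate. *Tug1*, which is expressed in many tissues, did not pass (-0.05 ± 0.10 and -0.25 ± 0.24), and neither did *2900097C17Rik*, the mouse Norad (0.10 ± 0.07 and 0.21 ± 0.12). *Dleu2* (-0.66 ± 0.16), *Bvht* (-0.63 ± 0.21) and *Lncpint* (-0.79 ± 0.27, adjusted p = 0.0499) were called in *OMD*-/- and not in *PRELP*-/-, where their values were -0.15 ± 0.20, 0.27 ± 0.34 and -0.60 ± 0.26. *Jpx* (-0.68 ± 0.28 and -0.05 ± 0.27), *Pvt1* (-0.68 ± 0.24 and -0.57 ± 0.28), *Sox2ot* (-0.67 ± 0.30 and -1.83 ± 0.54) and, tested in *OMD*-/- alone, *Hotair* (0.99 ± 0.61) did not pass. *Xist*, the RNA of the inactive X chromosome, ranged from 2.13 to 1215 CPM within *WT* and did not pass in either knockout (-3.06 ± 2.26 and -4.01 ± 2.13). It had 2.13, 5.63, 1009 and 1215 CPM in *WT*, 38.7, 89.4 and 76.8 CPM in *OMD*-/-, and 0.387, 49.1 and 56.2 CPM in *PRELP*-/-. The 3 libraries with the highest Y-gene levels had the lowest *Xist*, but among those with Y genes under 1 CPM, *OMD*-/- replicates 2 and 3 were far below *WT* replicates 3 and 4.

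**Figure D4:**
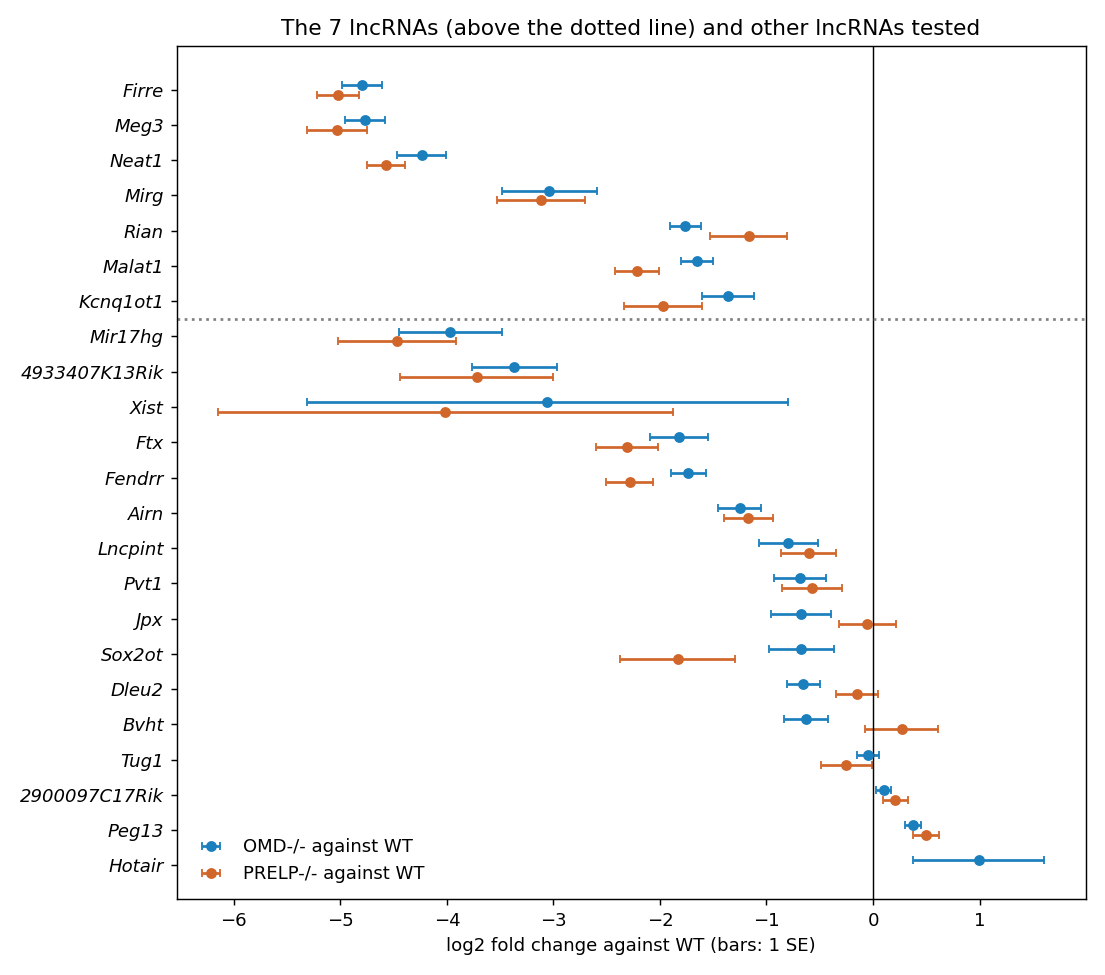
Log2 fold change against WT with 1 SE for the 7 lncRNAs (above the dotted line) and the other listed lncRNAs that were tested, in OMD-/- and PRELP-/-. Mir17hg (-3.97 and -4.47) lies near Neat1 (-4.24 and -4.57), while Tug1, 2900097C17Rik and Peg13 lie between -0.25 and 0.50.

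By annotated type, lincRNAs were called lower in 32.5% (140 of 431) in *OMD*-/- and 15.9% (69 of 434) in *PRELP*-/-, beside 13.6% and 4.51% of protein-coding genes. Their median log2 fold changes were -0.57 and -0.50, against 0.03 and 0.04 for protein-coding genes. Antisense RNAs (medians -0.74 and -0.65) and processed transcripts (-0.81 and -0.67, the class that holds *Firre* and *Rian*) were lower in the median too, as were genes annotated as TEC (to be experimentally checked; -1.19 and -1.18). Processed pseudogenes were not (medians 0.09 and 0.40, with 3.26% and 1.18% called lower).

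The genes with the most similar pattern to each lncRNA were found as those with the smallest root mean square difference in centred log2 CPM over the 10 libraries, among 14468 other genes with a mean of at least 1 CPM. Libraries of all 3 groups enter this measure, so it mainly follows the gap between *WT* and knockouts. *Rgs11*, a regulator of G-protein signalling, was nearest to *Firre* (0.26), *Neat1* (0.37) and *Meg3* (0.32), with log2 fold changes of -4.99 in *OMD*-/- and -5.19 in *PRELP*-/-. *Snhg11*, a small nucleolar RNA host gene that is annotated as protein-coding, came second for each of these 3 (0.32, 0.44 and 0.60). *Mir5125*, AI480526 and *Coro6* came next (0.51, 0.47 and 0.61). *Malat1* was nearest to *Zc3h12a* (0.11), which encodes an RNase of inflammatory transcripts, then *Chka* (0.15) and *Ftx* (0.19). *Rian* was nearest to *Taf1d* (0.19), *9130008F23Rik* (0.22) and *Snhg1* (0.24). *Taf1d* and *Snhg1* are, like *Rian*, hosts of snoRNAs. *Kcnq1ot1* was nearest to *Zfc3h1* (0.23), a factor of nuclear RNA decay, *Col20a1* (0.24) and *Eml5* (0.27), and *Mirg* to *Sspo*, *Gm15675* and *Gm43609* (0.45 to 0.46). Among the 7 themselves, *Firre* and *Neat1* were closest (0.31) and *Firre* and *Rian* farthest (1.77).

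Genes beside the 7 lncRNAs on their chromosomes were looked at by position. Of 25 protein-coding genes that are the 3 nearest on either side of a lncRNA, 17 could be tested in *OMD*-/- (2 higher, 2 lower, median log2 fold change 0.15) and 15 in *PRELP*-/- (1 higher, 0 lower, median 0.19). Of all genes tested, 14.3% were called higher and 15.1% lower in *OMD*-/-, and 1.4% and 5.89% in *PRELP*-/-. The values of the neighbours ranged from -0.59 to 0.83 in *OMD*-/- and from -0.43 to 0.75 in *PRELP*-/-. None of them came near those of *Firre*, *Neat1* or *Meg3*. The far fall of *Firre*, *Neat1* and *Meg3* led to their choice, so nothing is read from this gap.

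Beside *Neat1* and *Malat1*, *Ltbp3*, a binding protein of latent TGF-β, rose by 0.43 ± 0.09 on the log2 scale in *OMD*-/- (adjusted p = 0.00721), with 0.29 ± 0.22 in *PRELP*-/-. *Slc25a45*, a mitochondrial carrier, had -0.32 ± 0.11 in *OMD*-/- (adjusted p = 0.0493) and -0.18 ± 0.17 in *PRELP*-/-. *Frmd8* (0.18 ± 0.09 and 0.19 ± 0.14) and, in *OMD*-/- alone, *Tigd3* (0.49 ± 0.71) did not pass. Near *Firre*, the kinase gene *Stk26* was lower in *OMD*-/- (-0.59 ± 0.17, adjusted p = 0.0266) and did not pass in *PRELP*-/- (-0.43 ± 0.19), and *Rap2c* did not pass in either (-0.21 ± 0.11 and -0.03 ± 0.18).

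In the imprinted Dlk1-Dio3 domain, the paternally expressed *Dlk1* had a mean of 0.531 CPM over all libraries and did not pass (0.83 ± 0.43 in *OMD*-/- and 0.49 ± 0.41 in *PRELP*-/-). *Dio3*, tested in *OMD*-/- alone, did not pass (0.28 ± 0.44), nor did *Wdr25* (0.25 ± 0.20 and 0.36 ± 0.21), *Ppp2r5c* (0.07 ± 0.08 and 0.19 ± 0.15) or *Dync1h1* (0.11 ± 0.14 and 0.04 ± 0.31). *Dio3os*, a noncoding RNA at the far end, had 56 to 71 counts in *WT*, 17 to 23 in *OMD*-/- and 20 to 31 in *PRELP*-/-. Scaled to library totals, this was 1.41 to 2.98 CPM in *WT*, 0.812 to 1.05 CPM in *OMD*-/- and 0.931 to 1.60 CPM in *PRELP*-/-. The *PRELP*-/- range thus overlapped that of *WT*. *Dio3os* was lower in *OMD*-/- (-1.38 ± 0.33, adjusted p = 0.0104) and did not pass in *PRELP*-/- (-0.94 ± 0.34, adjusted p = 0.125).

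Of 14 tested genes listed in and around the domain that *Kcnq1ot1* is known to silence, 5 were higher in *OMD*-/- and 2 in *PRELP*-/-. Of all genes tested, 14.3% and 1.4% were higher. In the list 0 were lower, beside 15.1% and 5.89% of all genes. The median log2 fold changes were 0.23 and 0.19. On total counts, 2 were higher and 0 lower in *OMD*-/- (median 0.06), and 1 was higher and 1 lower in *PRELP*-/- (median -0.03). With single libraries left out, 3 or 4 were higher in *OMD*-/- (3 without *WT* replicate 3 or 4 or any 1 *OMD*-/- library), and in *PRELP*-/- 4 without replicate 1, 0 without *WT* replicate 3 and 1 otherwise. The list is not complete: within 1000 kb of *Kcnq1ot1*, 9 of 30 other tested genes were higher and 5 lower in *OMD*-/-, and 2 and 2 in *PRELP*-/-. *Nadsyn1* (-0.46 ± 0.15), *Tnfrsf26* (1.38 ± 0.29) and *Mrgpre* (0.90 ± 0.23), which lie among the listed genes, passed in *OMD*-/- and are not in the list. *Tnfrsf23*, a decoy receptor, rose by 1.31 ± 0.15 in *OMD*-/- (adjusted p = 0.000183) and 0.93 ± 0.16 in *PRELP*-/- (adjusted p = 0.0123). *Slc22a18*, an imprinted transporter, rose by 0.44 ± 0.11 and 0.75 ± 0.16. *Cd81* (0.46 ± 0.09), *Tnfrsf22* (0.56 ± 0.18) and *Dhcr7* (0.30 ± 0.10) passed in *OMD*-/- alone, with 0.42 ± 0.14, 0.17 ± 0.22 and 0.39 ± 0.13 in *PRELP*-/-. *Cdkn1c*, an imprinted inhibitor of the cell cycle, did not pass (0.30 ± 0.21 and 0.21 ± 0.27), and neither did *Kcnq1* (0.15 ± 0.20 and 0.06 ± 0.24), *Phlda2* (-0.45 ± 0.31 and -0.03 ± 0.36) or *Ascl2* (-0.51 ± 0.28 and 0.32 ± 0.25). *Nap1l4* (-0.05 ± 0.08 and 0.03 ± 0.15), *Tssc4* (0.08 ± 0.13 and 0.25 ± 0.25), *Osbpl5* (-0.02 ± 0.07 and -0.04 ± 0.13), *Cars* (-0.03 ± 0.10 and -0.31 ± 0.13) and *Tspan32* (0.41 ± 0.49 and -0.23 ± 0.42) did not pass either. *Kcnq1ot1* was 0.658 to 1.98 times the count of *Kcnq1* in the knockout libraries and 2.13 to 6.29 times in *WT*.

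**Figure D5:**
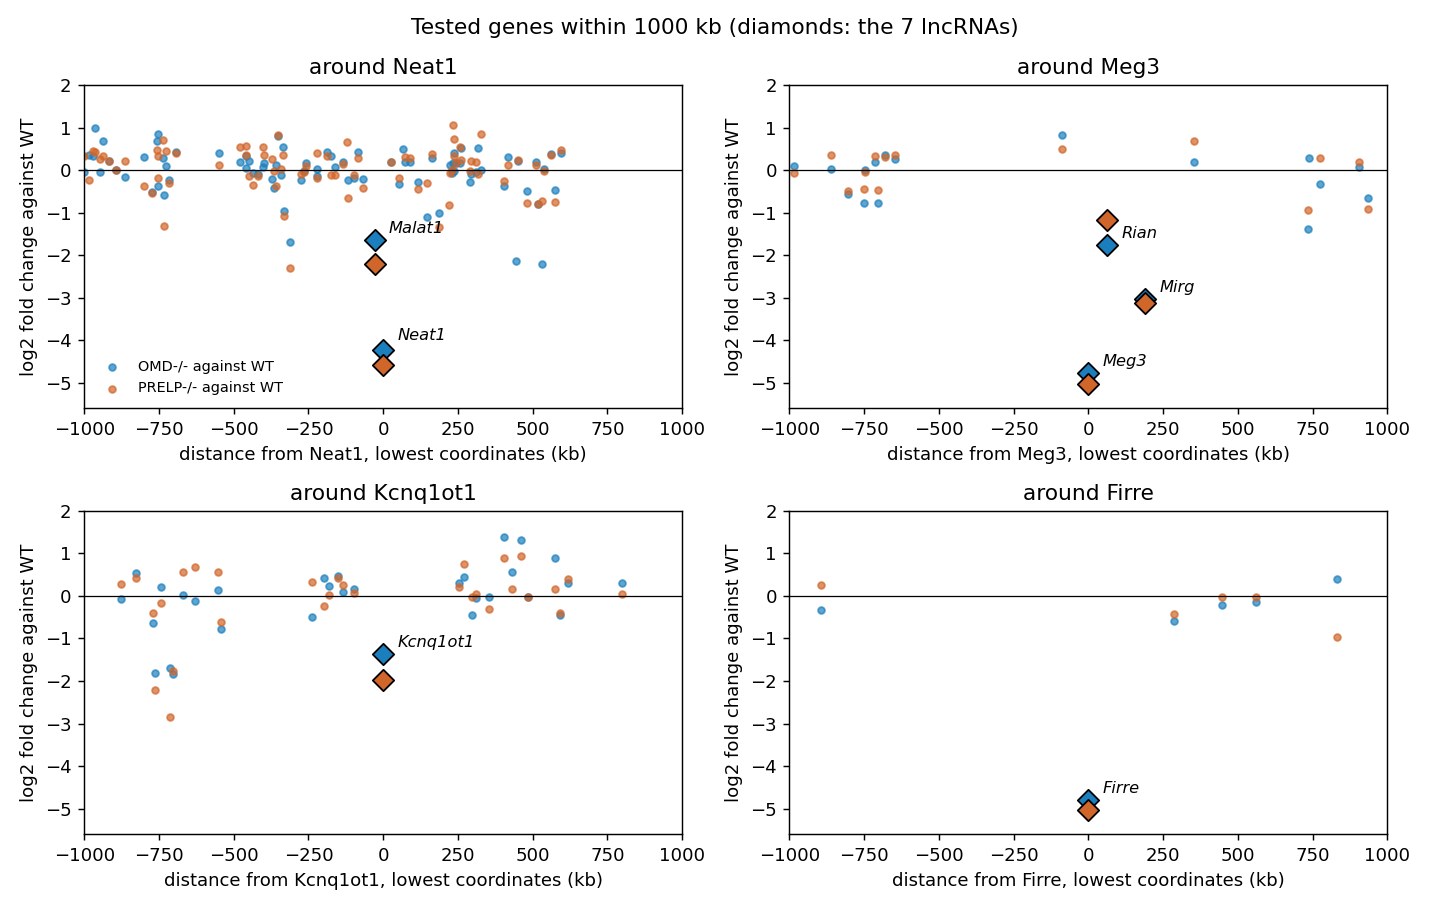
Log2 fold change against WT of the tested genes within 1000 kb of Neat1, Meg3, Kcnq1ot1 and Firre, by the distance between the lowest coordinates of the genes in kb, in OMD-/- and PRELP-/- (diamonds mark the lncRNAs). Firre, Meg3 and Neat1, chosen because they fell far, are the lowest points of their windows at -4.24 or below. Near Kcnq1ot1 (-1.36 and -1.97) the muscle gene Tnnt3 reaches -1.84 in OMD-/- and Prr33 reaches -2.84 in PRELP-/-.

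Proteins that work with these RNAs were followed by lists, which were also drawn up with earlier results of these data known. For these and the marker lists below, the shares over all genes were 15.1% lower and 14.3% higher in *OMD*-/-, and 5.89% and 1.4% in *PRELP*-/-. Of 24 genes of nuclear speckle proteins, the compartment of *Malat1*, 20 were lower in *OMD*-/- and 10 in *PRELP*-/-, and 0 were higher, with medians of -0.61 and -0.78. Without *PRELP*-/- replicate 1, 17 were lower in *PRELP*-/- (median -0.60), and without any other single library 5 or 6 were. In *OMD*-/- 15 to 21 were lower with single libraries left out. With all 10 libraries in 1 fit, 9 were lower in *OMD*-/- and 14 in *PRELP*-/-. With the replicate number as a block, 18 and 2 were lower. The splicing factor kinase *Clk1* was at 76.3 to 154 CPM in *WT*, 21.8 to 30.6 CPM in *OMD*-/- and 19.1 to 29.7 CPM in *PRELP*-/- (log2 fold changes -2.15 ± 0.30 and -2.27 ± 0.31). Its paralogue *Clk4* was lower by about as much (-2.03 ± 0.26 and -2.10 ± 0.27). *Luc7l3*, a U1-associated protein (-1.21 ± 0.16 and -1.46 ± 0.17), and the SR-family splicing factors *Srsf11* (-0.98 ± 0.10 and -1.29 ± 0.14) and *Srsf5* (-1.08 ± 0.10 and -1.04 ± 0.14) were lower in both too.

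Paraspeckle protein genes moved less than their RNA scaffold *Neat1*, whose far fall led to its choice. Of 30 tested, 7 were lower and 1 was higher in *OMD*-/- (median -0.18), and 4 were lower and 0 higher in *PRELP*-/- (median -0.08). *Hnrnph1*, a splicing regulator, was at -0.81 ± 0.08 in *OMD*-/- and -0.94 ± 0.14 in *PRELP*-/-. *Rbmx* (-0.44 ± 0.12 and -0.70 ± 0.14), *Tardbp* (-0.58 ± 0.08 and -0.58 ± 0.13) and *Rbm4b* (-0.67 ± 0.13 and -0.57 ± 0.14) passed in both. The core protein gene *Nono* was the 1 that rose in *OMD*-/- (0.36 ± 0.08), with 0.41 ± 0.13 in *PRELP*-/- (adjusted p = 0.0884). On total counts 14 and 7 of the list were lower and 0 were higher. With single libraries left out, 6 to 10 were lower and 1 to 4 higher in *OMD*-/- (4 without *WT* replicate 1 or 2), and in *PRELP*-/- 7 were lower without replicate 1 and 1 or 2 without any other.

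Of 13 genes of the enzymes that cut the *Malat1* and *Neat1* ends and of related factors, 3 were lower in *OMD*-/- (median -0.03) and 0 in *PRELP*-/- (median 0.17, or -0.09 on total counts, and 2 under an unadjusted 0.05). Those 3 were the RNase P subunits *Pop4* (-0.37 ± 0.11), *Rpp21* (-0.41 ± 0.12) and *Rpp38* (-0.51 ± 0.17). None was called without *OMD*-/- replicate 2, and 1 to 4 were without other libraries. In *PRELP*-/- 2 were lower and 1 higher without replicate 1. Of the 6 genes of *Firre* partners (*Hnrnpu*, CTCF and cohesin), 2 were higher in *OMD*-/- (*Rad21*, 0.33 ± 0.08, and *Smc1a*, 0.44 ± 0.11) and 0 passed in *PRELP*-/- (0 under an unadjusted 0.05). On total counts the *OMD*-/- split turned to 0 higher and 1 lower, and without *OMD*-/- replicate 2 or 3 only 1 was higher. Of 18 tested genes of nuclear RNA decay and export, 6 were lower in *OMD*-/- (median -0.24) and 3 in *PRELP*-/- (median -0.20). With single libraries left out, 4 to 8 were lower in *OMD*-/-, and in *PRELP*-/- 6 without replicate 1 and 3 without any other. On total counts 11 and 4 were lower. The export receptor gene *Nxf1* (-1.62 ± 0.09 and -1.68 ± 0.15), the poly(A)-binding protein gene *Pabpn1* (-1.72 ± 0.12 and -1.44 ± 0.18) and *Zfc3h1* (-1.30 ± 0.14 and -2.12 ± 0.34) were lower in both.

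Markers of other cells of the bladder moved with the groups as well. Fibroblast markers summed to 8042 to 9276 CPM in *WT*, 17682 to 21348 CPM in *OMD*-/- and 9585 to 19562 CPM in *PRELP*-/-, and 4 of 6 passed as higher in *OMD*-/- and 2 of 6 in *PRELP*-/-, where 4 passed without replicate 1 and 0 without any other library. Leukocyte markers summed to 248 to 317 CPM in *WT*, 262 to 544 CPM in *OMD*-/- and 194 to 254 CPM in *PRELP*-/- (4 of 6 and 1 of 6 higher). In *OMD*-/- 6 were higher without replicate 1, and in *PRELP*-/- 0 without any 1 *WT* library. Smooth muscle markers summed to 296 to 1165 CPM in *WT*, 358 to 714 CPM in *OMD*-/- and 226 to 237 CPM in *PRELP*-/-, with 0 of 6 passing in either (0 and 5 under an unadjusted 0.05). Umbrella cell markers passed as higher in 2 of 6 and 1 of 6, basal urothelium markers in 1 of 3 tested and 0 of 4 (3 under an unadjusted 0.05), endothelial markers in 0 of 4 and 0 of 4 (3 and 0 under an unadjusted 0.05), and nerve markers in 1 of 4 higher and 1 of 4 lower. No list was absent from a group. The part of cell composition in the levels of the lncRNAs was not tested.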

How the data were processed

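RNA of 10 mouse bladder samples (WT 4, OMD-/- 3, PRELP-/- 3) was sequenced after oligo-dT selection with a strand-specific kit. The authors deposited raw counts of reads per gene for each library. The column headers name HISAT2, and the submitters' processing notes name STAR 2.5.2b, bcl2fastq, featureCounts and DESeq2. The strand setting, the use of molecular identifiers and other versions are not given in the sources used here. Gene names and positions followed GRCm38, GENCODE vM21. The deposited tables of fold changes and p-values of each knockout against WT were not used.

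Counts were tested with edgeR 4.0.16 (quasi-likelihood, TMM factors, filterByExpr, R 4.3.3), on the 2 groups of each comparison alone, with Benjamini-Hochberg adjustment over all genes tested and a threshold of 0.05. The steps were tested on simulated data. Members and gene lists were chosen with earlier results of these data known. Genes named were all members, every tested gene of the lncRNA and imprinted domain lists, up to 4 of each other list with the smallest larger adjusted p of both knockouts among those passing in either, the 3 nearest protein-coding genes on each side and the 3 genes most alike. Clk1, Nono, Tnnt3, Prr33, Nadsyn1, Tnfrsf26 and Mrgpre fall outside this rule and were chosen after their values were seen. One neighbouring gene is not reported here. Alternatives were RLE, upper quartile or total count scaling, DESeq2 1.42.0, limma 3.58.1 (voom with sample weights), no filter, 1 fit of all libraries, a replicate block, a Y-gene covariate and leaving out each library.

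Total counts were 20391437 to 46269079, and intervals cover 95%. P-values measure only the spread between these libraries. The labels number replicates in each group. Deviations from the group means of same-numbered libraries correlated at 0.384, 0.273 and 0.235 between OMD-/- and PRELP-/-, all over the 0.1 set as a rule for pairing. They correlated at 0.0054, -0.045 and 0.0082 between WT and OMD-/- and at -0.124, 0.193 and -0.154 between WT and PRELP-/-. Libraries of different numbers were not compared, so whether the numbers pair the libraries is not shown.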

Additional observations from a re-analysis of the deposited data

Results flagged for a closer look

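The 7 lncRNAs, the other listed lncRNAs and the genes of both imprinted domains (41 in all) were checked for a library far from the others among the 4 WT libraries, and 1 stood out. Wdr25, a gene upstream of Dlk1, had 4.79 CPM in its lowest WT library and 7.67, 7.94 and 8.25 CPM in the others. The gap to the nearest library was 0.833 of the whole range, above Dixon's 95% critical value. Chance marks about 1 in 20 such groups.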

How the results depend on the processing

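All 7 lncRNAs kept their direction in both knockouts under each alternative run. Their choice used the same contrasts, so nothing is read from this. Over all genes, 4899 were called in OMD-/- against WT, and 2485 with all 10 libraries in 1 fit. In PRELP-/- against WT 1209 were called, and 2547 by DESeq2, 6973 by limma-voom and 2485 with all libraries in 1 fit. Leaving out single libraries gave 2951 to 4850 calls in OMD-/-, 475 (without PRELP-/- replicate 2) to 3807 (without PRELP-/- replicate 1) in PRELP-/-, and 1 to 36 between the knockouts, where 1 gene was called. That last count was 88 by DESeq2, 1012 by limma-voom, 5 without a filter, 3 with all libraries in 1 fit and 4 with the Y-gene covariate.

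With the replicate number as a block, 3516 genes were called in OMD-/- against WT, 115 in PRELP-/- against WT and 43 between the knockouts. The block without PRELP-/- replicate 1, chosen after seeing the data, gave 3526 in PRELP-/- against WT and 2737 between the knockouts, each on 1 residual degree of freedom. In it Neat1 (-0.52), Malat1 (-0.52), Meg3 (-0.70) and Kcnq1ot1 (-0.40) passed between the knockouts.

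Between the knockouts, signs turned with the Y-gene covariate for Firre (0.49), Neat1 (0.30), Rian (-0.47) and Kcnq1ot1 (0.10), for Meg3 without OMD-/- replicate 2 (0.03) or PRELP-/- replicate 2 (0.039), and for Rian without PRELP-/- replicate 1 (-0.062). With single libraries left out, Meg3 ranged from -0.46 to 0.04 and Rian from -0.06 to 0.85. The causes were not tested. Mirg, with at most 14 counts in any knockout library, had a log2 fold change of -3.84 without OMD-/- replicate 2 and -3.83 without PRELP-/- replicate 3.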
